A study of Mus musculus with 24 samples.

Results

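This report covers the cerebellum of mice collected at postnatal day 42 (P42): 4 libraries from Polr3a mutants, named M1 to M4 here, and 4 from wild types, W1 to W4. They are 8 of the 24 libraries of the series, chosen by their labels, and all genes of their count table were used. Every one of the 8 came from C57BL/6J mice that received tamoxifen at postnatal day 28 (P28), 14 days before collection, so wild types carry the drug too. The mutants were 2 males (M1 and M2) and 2 females (M3 and M4), and the wild types 3 males (W1 to W3) and 1 female (W4). Recombination was induced by the tamoxifen, but the labels name neither the Cre line nor the cells it acts in, nor do they say whether wild types carried Cre. They also do not say that each library is a separate animal, so the p-values measure the spread between libraries, which may be technical. The other libraries are cerebrum at P42 and P75.

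RNA polymerase III makes transfer RNAs and further short RNAs that code for no protein, and Polr3a encodes its largest subunit. Transfer RNAs are charged with amino acids by aminoacyl-tRNA synthetases, and a shortage of charged transfer RNA can activate the kinase GCN2 and, through it, the transcription factor ATF4, which raises genes of amino acid supply and the synthetases themselves. Mutations in POLR3A cause leukodystrophy and cerebellar disease in people. The cerebellum is made mostly of granule cells with a single layer of Purkinje cells, lies over the brainstem and the fourth ventricle, and borders the choroid plexus, the epithelium that secretes cerebrospinal fluid.

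The table holds whole-number counts for 54532 genes, with a total of 13832721 (W3) to 23132504 (M4) counts per library and 2.97% to 5.38% of them on mitochondrial genes. Counts were scaled by TMM (factors 0.984 to 1.016) and by library size to CPM, the usual per-library rate, and 17616 genes passed the filter on low counts. Genotype was tested with edgeR's quasi-likelihood F test with sex as a covariate, and a gene was called at an adjusted p under 0.05. All 8 libraries had the sex-linked transcripts that their labels call for. Markers of granule cells summed to 2530 to 8238 CPM and those of Purkinje cells to 3956 to 9507 CPM, whereas markers of forebrain neurons summed to 13.7 to 20.2 CPM.

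Of the 17616 genes, 2 were called (0.0114%), Esr1 higher and Col9a3 lower in mutants, and Polr3a mRNA itself was not. The count table gave Polr3a at 57.1, 53.4, 54.4 and 43.9 CPM in M1 to M4 and at 58.4, 59.0, 46.4 and 41.3 CPM in W1 to W4. The groups overlapped (log2 fold change 0.10 ± 0.13 SE, edgeR adjusted p 0.984), so the level of the transcript does not separate the genotypes and does not check the labels. The labels do not give the allele.

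Esr1, which encodes estrogen receptor alpha and lies at chr10:4611593-5005614 (mm10), stood at 81.5, 51.7, 75.2 and 50.01 CPM in M1 to M4. In W1 to W4 it stood at 1.72, 1.67, 2.15 and 1.76 CPM. Every mutant library was far above every wild type, 64.6 ± 16.1 against 1.82 ± 0.222 CPM (SD, n = 4 each), a log2 fold change of 5.16 ± 0.23 SE (edgeR adjusted p 6.0e-05). Inducible forms of Cre recombinase carry the hormone-binding part of an estrogen receptor. In a table of counts per gene, reads of the native gene and of any transgene holding part of its sequence cannot be told apart. Of the other 7 tested genes of a list of estrogen receptors and estrogen targets, which includes Pgr and Greb1, 0 were called. Since 0.0114% of all genes were called, that count says nothing about estrogen signalling. In 2 of the 8 tested genes, Esr1 among them, all mutants lay above all wild types (against 1.85% of all genes).

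Col9a3, which encodes a chain of the cartilage collagen type IX (chr2:180597790-180622189), stood at 19.9, 18.8, 32.1 and 24.6 CPM in M1 to M4. Its wild type values were 42.02, 43.8, 47.3 and 65.1 CPM. The groups did not overlap, and the gene fell by 1.20 ± 0.12 SE on the log2 scale (edgeR adjusted p 0.0347). This call rests on the whole set of libraries: leaving out 1 library at a time kept the log2 fold change between -1.26 and -1.14, but the adjusted p passed 0.05 in 6 of 8 cases and reached 0.683 without W4. It was 0.0802 without M1, 0.308 without M2, 0.183 without W1, 0.244 without W2 and 0.222 without W3. The call was also lost without the sex term (adjusted p 0.912), with the replicate number as a block (1.0), with a covariate for choroid plexus content (0.144) and in males only (0.428). Every mutant had a lower choroid plexus level than every wild type, so that covariate overlaps with genotype and cannot be told apart from it.

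**Figure D1:**
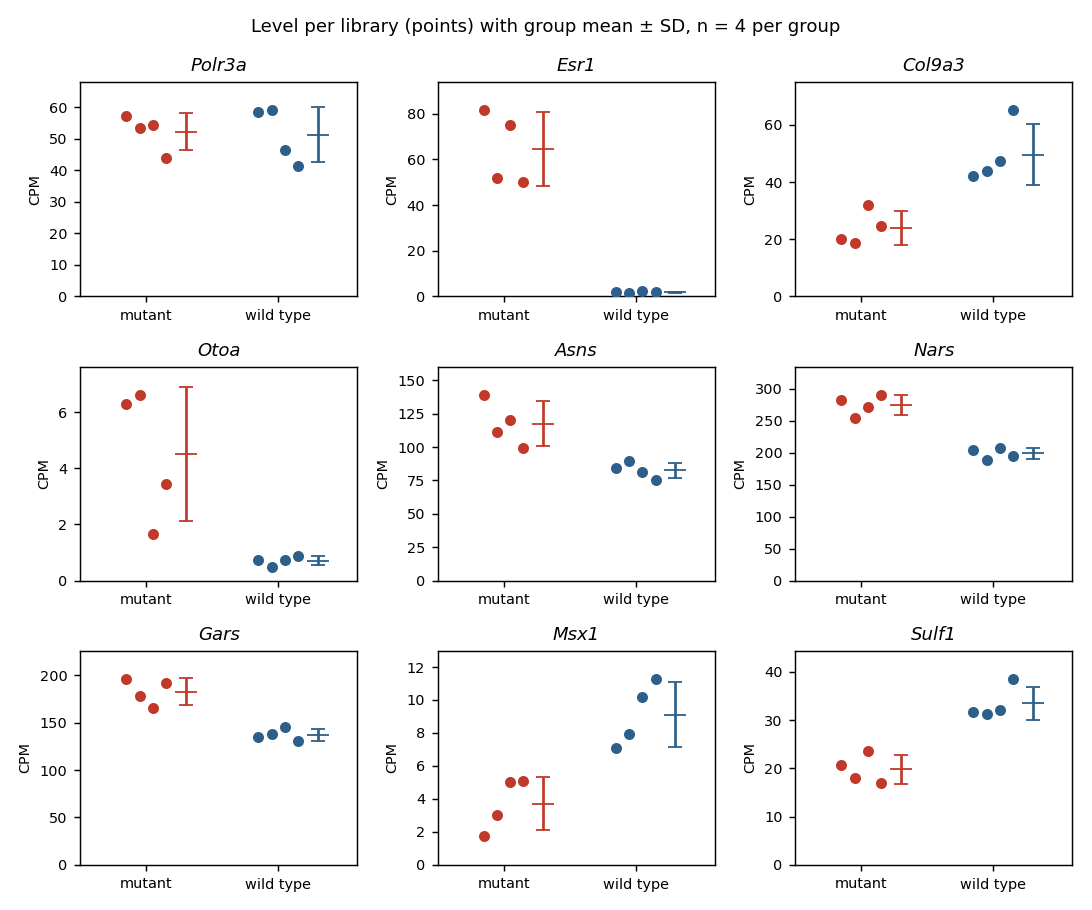
CPM of 9 genes in each library (points, in the order of the replicate numbers) with the group mean and SD (n = 4 per group), mutants in red and wild types in blue; every axis starts at 0. The groups overlap for Polr3a and are apart for the other 8 genes, of which Esr1 and Col9a3 were called.

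The next smallest adjusted p was 0.699. More genes separated the groups than were called, but with 4 libraries on each side some genes separate by chance. In 326 genes all 4 mutant values lay above all 4 wild type values (1.85%), and in 278 they lay below (1.58%). At an unadjusted p under 0.05 there were 819 genes (4.65%), 391 higher (2.22%) and 428 lower (2.43%). A threshold of 0.05 passes about that fraction of genes when no gene differs, so this count alone shows no excess. The median log2 fold change over all tested genes was 0.01, its median SE 0.21, and at the median gene the 95% interval reached 0.47 to either side.

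The spread between replicates was larger among mutants than among wild types. Over the 12225 genes with a mean of at least 5 CPM, the SD of log2 CPM was larger among the mutants for 9514, with a median of 0.25 against 0.16. The root mean square log2 difference between 2 libraries was 0.44 to 0.82 within mutants (median 0.57 over 6 pairs) and 0.24 to 0.40 within wild types (median 0.36 over 6 pairs). Pairs of a mutant and a wild type, 16 in all, had a median of 0.48, below that of 2 mutants.

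On the first principal component of the 500 most variable genes, which held 52.1% of the variance, M1 stood at 57.0 and M4 at -31.1. M3 stood at 9.66 and M2 at -15.0, while the 4 wild types lay between -14.4 and 1.92. The component thus ran across the mutants and left the wild types near its middle. Its leading genes included Otp, a transcription factor of neurons outside the cerebellar cortex, Rln3, a peptide of the pontine nucleus incertus, Slc18a3, Slc5a7 and Chat, which make and load acetylcholine, and the hindbrain genes Hoxa3 and Hoxa4. Folr1 and Ttr of the choroid plexus were among its first 25. The second component (16.5%) was led by sex-linked genes.

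**Figure D2:**
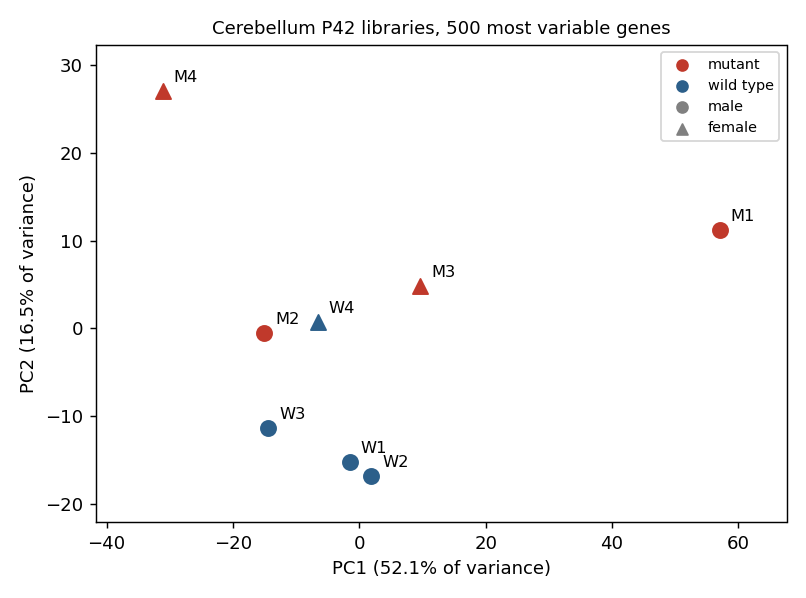
First and second principal component of log2 CPM over the 500 most variable genes, mutants in red and wild types in blue, males as circles and females as triangles. M1 and M4 mark the ends of the first component at 57.0 and -31.1, and the 4 wild types lie between -14.4 and 1.92.

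Choroid plexus transcripts were lower in all 4 mutants and nearly missing in 1. The level of a list, the mean log2 CPM of its tested genes relative to the wild type mean, was -3.78 in M1, -0.82 in M2, -1.14 in M3 and -0.81 in M4 for 24 choroid plexus genes. In wild types it ran from -0.32 to 0.26. All 24 genes had a lower fitted value in mutants, 17 at an unadjusted p under 0.05 (against 2.43% of all tested genes) and 16 with groups that did not overlap (against 1.58%), and 0 were called. Their median log2 fold change was -1.34, set beside 0.01 over all genes. Markers of the multiciliated ependyma, which lines the ventricles, were low in the same library: their level (9 tested genes) was -1.37, -0.31, -0.47 and -0.24 in M1 to M4 and -0.41 to 0.38 in wild types. Of the 9, 8 had a lower fitted value, 2 at an unadjusted p under 0.05, with a median of -0.62, or -0.28 without M1. In bulk tissue, fewer cells of a type and less RNA per cell cannot be told apart.

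Ttr, which encodes the thyroxine carrier transthyretin, the most abundant product of this epithelium, stood at 12.7 CPM in M1, 778 in M2, 670 in M3 and 924 in M4. In W1 to W4 it stood at 1201, 1525, 1622 and 2155 CPM. All mutants were below all wild types, and M1 was more than an order of magnitude below the other mutants, so the SE was wide: -1.72 ± 0.87 (edgeR adjusted p 0.967). Without M1 the difference was -1.15 ± 0.20, still not called (edgeR adjusted p 0.339). Klotho (Kl), a membrane protein of choroid plexus and kidney, was also lower in all mutants than in all wild types and lowest in M1. Kl stood at 1.41, 32.6, 28.6 and 32.6 CPM in M1 to M4 and 66.6, 102, 86.0 and 105 CPM in W1 to W4. Its log2 fold change was -2.12 ± 0.66 with all libraries and -1.57 ± 0.18 without M1 (edgeR adjusted p 0.967 and 0.087).

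The folate receptor gene Folr1 stood at 0.0706 CPM in M1 and at 3.42 to 8.06 CPM in M2 to M4, against 11.3 to 16.8 CPM in wild types. The water channel gene Aqp1 stood at 0.636 CPM in M1, 3.48 to 5.93 CPM in the other mutants and 8.88 to 14.0 CPM in wild types. For these genes M1 is close to the floor of the count. Other members differed less between M1 and the rest. Otx2, a transcription factor of the epithelium that is also made by other cells of the cerebellum, stood at 12.998, 11.5, 11.6 and 11.05 CPM in M1 to M4 against 14.5 to 25.7 CPM (-0.82 ± 0.19). The sulfate carrier gene Slc13a4 stood at 7.98, 14.9, 19.4 and 19.3 CPM against 20.4 to 31.7 CPM (-0.93 ± 0.21).

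Msx1, a homeobox gene of the plexus and roof plate, had the smallest p of the list, at 1.77, 3.02, 5.03 and 5.06 CPM against 7.09, 7.91, 10.2 and 11.3 CPM (-1.56 ± 0.26, edgeR adjusted p 0.699). With DESeq2 Msx1, the claudin gene Cldn2 and the metalloreductase gene Steap1 of this list were called, at adjusted p 0.000196, 0.0446 and 0.0446. Leaving out M1 moved the list's median from -1.34 to -0.92, leaving out M2 moved it to -2.11, and in both cases 24 of 24 members stayed below 0. Without the filter on low counts edgeR called 20 of the 24, and 153 genes in all (0.453% of 33753). All 24 had also passed the filter in the main fit, where 0 were called. The fit without the filter assumed no spread in dispersion between genes of the same mean level.

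**Figure D3:**
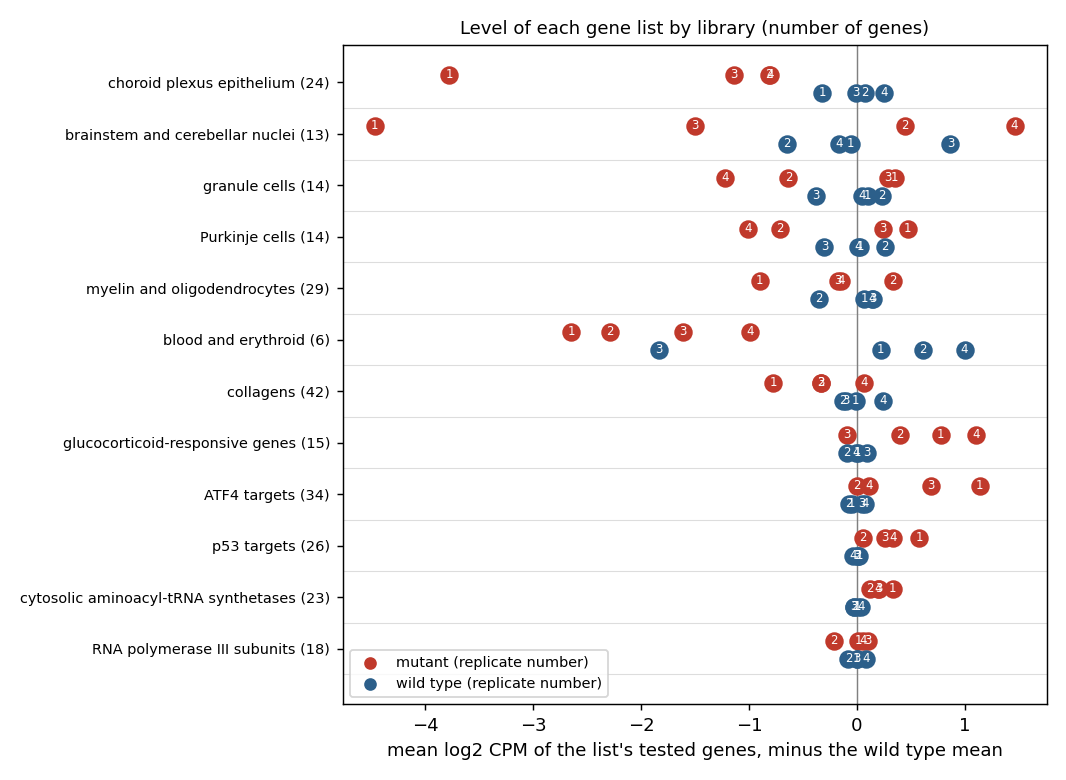
Mean log2 CPM of each list's tested genes (their number in brackets) in each library, minus the wild type mean, with mutants in red above wild types in blue and the replicate number inside each point. M1 lies far left for choroid plexus (-3.78) and brainstem (-4.47) genes, M2 and M4 lie left for granule and Purkinje genes, and the 4 mutants sit right of the 4 wild types for the synthetases.

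Transcripts of neurons outside the cerebellar cortex differed even more between the mutants, in both directions. For 13 tested markers of brainstem and deep cerebellar nuclei the level was -4.47 in M1, 0.45 in M2, -1.50 in M3 and 1.46 in M4, and -0.65 to 0.87 in wild types. Chat, the acetylcholine-making enzyme of motor neurons, stood at 0.0706 CPM in M1, 12.03 in M2, 2.89 in M3 and 19.99 in M4, against 3.47 to 9.40 CPM in wild types. Tph2, the serotonin-making enzyme of the raphe, stood at 1.13, 21.4, 3.05 and 33.1 CPM against 2.78 to 18.1 CPM. The vesicular glutamate transporter gene Slc17a6 stood at 32.1, 182, 61.3 and 203 CPM against 86.1 to 128 CPM.

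M1 was thus lowest and M4 highest for each of these genes, with the wild types between them. Otp was at 0 CPM in M1 and at 14.6 CPM in M4, and in wild types at 3.54 to 8.11 CPM. As a group comparison the list's median log2 fold change was -0.10, with 6 members higher and 7 lower, 0 at an unadjusted p under 0.05. That value balances libraries that lie apart: it was 0.41 without M1, 0.11 without M3 and 0.22 without W3, but -1.30 without M2, -0.79 without M4, -0.69 without W4, -0.26 without W1 and -0.19 without W2.

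Granule and Purkinje cell genes ran the opposite way. The level of 14 granule cell genes was 0.35 in M1, -0.64 in M2, 0.29 in M3 and -1.22 in M4, against -0.38 to 0.23 in wild types. That of 14 Purkinje cell genes was 0.47, -0.71, 0.24 and -1.01, against -0.30 to 0.26. Fat2, a cadherin-family gene of granule cells, stood at 921, 456, 978 and 209 CPM in M1 to M4 and at 501 to 1031 CPM in wild types. Gabra6, their GABA receptor subunit, stood at 448, 281, 501 and 165 CPM against 294 to 506 CPM. In Purkinje cells the inositol trisphosphate receptor gene Itpr1 stood at 3358, 1353, 2945 and 889 CPM against 1730 to 2874 CPM, and the calcium buffer gene Calb1 at 772, 345, 706 and 255 CPM against 433 to 707 CPM.

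M4 was lowest and M2 second lowest for these 4 genes, both below all wild types. Over the 8 libraries, each of which gives all 3 levels from the same RNA, the level of the brainstem list ran against that of granule cells (Pearson's r -0.73, a description) and Purkinje cells (-0.79), and the last 2 ran together (0.98). Between genotypes the medians were -0.17 for granule and -0.09 for Purkinje cell genes, with 0 of 28 at an unadjusted p under 0.05. Single libraries set these values as well. Without M1 both medians were -0.50, with 14 of 14 granule and 13 of 14 Purkinje cell genes lower, and without M3 they were -0.41 and -0.31. Without M2 the Purkinje median was 0.12, without M4 0.08 and without W4 0.0069, while that of granule cells came to -0.0048, 0.0071 and -0.075. Without W2 they were -0.096 (granule) and -0.031 (Purkinje), and without W3 -0.28 and -0.19. In Aldoc, found in glia and in a part of the Purkinje cells, the values were 1607, 1321, 1411 and 1565 CPM against 1313 to 1784 CPM, without that order.

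Glial lists differed less between libraries than the brainstem, granule and Purkinje lists. Bergmann glia and astrocytes (14 genes) had levels of -0.23 to -0.01 in mutants and -0.02 to 0.02 in wild types. Myelin and oligodendrocyte genes (29) stood at -0.90 in M1, 0.33 in M2, -0.18 in M3 and -0.15 in M4, with a median log2 fold change of -0.14 and 3 members lower at an unadjusted p under 0.05. Without M2 the median was -0.56 (27 of 29 lower, 16 at an unadjusted p under 0.05), without W2 -0.23 and without W3 -0.07, and without M1 it was 0.09 (17 higher, 12 lower), so its sign rests on M1. Homeostatic microglia genes (16) stood at -0.84 in M1 and -0.30 to 0.16 in the other mutants. Oligodendrocyte progenitor genes (15) stood at -0.93 in M1 and -0.29 to 0.11 in the other mutants. Their median was -0.24, or 0.09 without M1. Reactive astrocyte genes (21) ran from -0.37 in M1 to 0.73 in M4, against -0.06 to 0.09 in wild types. Complement genes (12) stood at 1.03 in M4 and -0.14 to 0.28 in the other mutants, with a median of 0.28, or -0.05 without M4. Inhibitory interneuron genes (10) kept within -0.12 to 0.08 in all libraries. Of 43 tested interferon-stimulated genes 0 passed an unadjusted p under 0.05 (median 0.01), and of 14 T cell genes 1 passed the filter on low counts.

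The synthetases that charge transfer RNAs in the cytosol were higher in mutants, by small steps seen in all 4 libraries. The level of 23 genes of synthetases and their cofactors was 0.33 in M1, 0.12 in M2, 0.21 in M3 and 0.20 in M4, and -0.03 to 0.04 in wild types. Of the 23, 19 had a higher fitted value, 9 at an unadjusted p under 0.05 (against 2.22% of all genes), and in 8 all mutants lay above all wild types (against 1.85%). Their median log2 fold change was 0.21 and 0 were called. No member was lower at an unadjusted p under 0.05. With a covariate for choroid plexus content the median was 0.10, with 15 higher and 8 lower, 2 each way at an unadjusted p under 0.05. That covariate was apart between the genotypes, so its fit cannot separate choroid plexus content from genotype.

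Nars, which charges asparagine, stood at 282, 254, 271 and 291 CPM in M1 to M4 and at 205, 188, 208 and 196 CPM in W1 to W4. The groups did not overlap, 275 ± 15.96 against 199 ± 8.71 CPM (SD, n = 4 each), with a log2 fold change of 0.46 ± 0.10 (edgeR adjusted p 0.727). Gars, which charges glycine, stood at 196, 178, 165 and 192 CPM against 135, 138, 146 and 131 CPM (0.43 ± 0.10, edgeR adjusted p 0.767). Aars, which charges alanine, stood at 374, 251, 323 and 289 CPM against 222, 219, 230 and 229 CPM (0.46 ± 0.14). Yars, for tyrosine, stood at 218, 141, 175 and 133 CPM against 111, 109, 125 and 124 CPM (0.53 ± 0.17).

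Eprs, Iars, Rars and Sars were the other 4 without overlap. Wars, Qars, Kars, Dars and Farsb, for tryptophan, glutamine, lysine, aspartate and phenylalanine, had log2 fold changes of -0.19 to 0.02. The mitochondrial synthetases showed no such shift: of 17, 7 had higher and 10 lower fitted values (median -0.06). Of 22 tested genes of transfer RNA processing, 17 had higher values (median 0.10), 1 at an unadjusted p under 0.05. That 1 was Xpot, the exporter of transfer RNA from the nucleus.

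**Figure D4:**
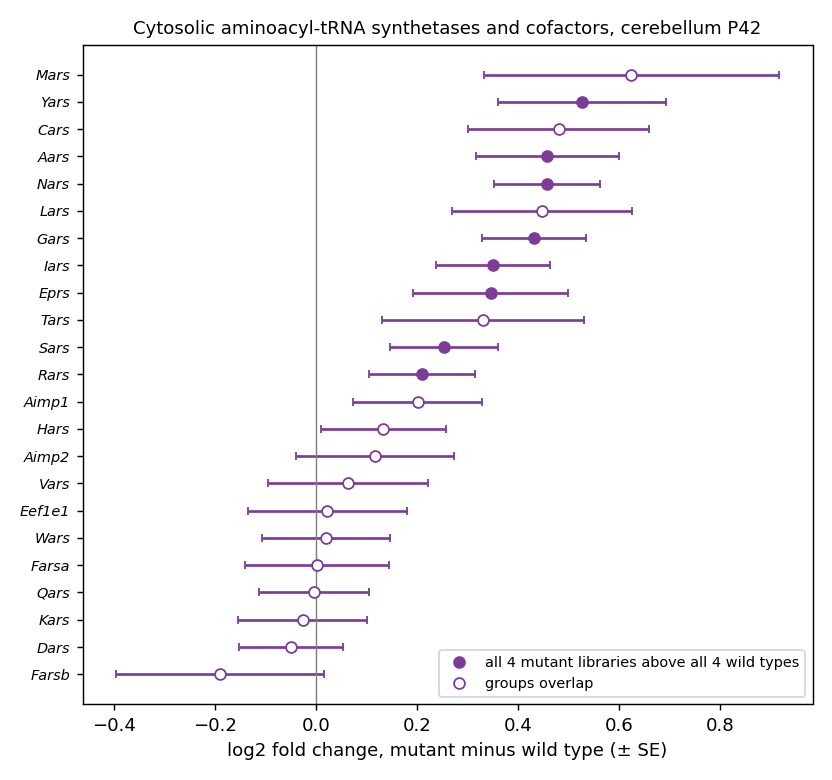
Log2 fold change (mutant minus wild type) with its SE for 23 genes of cytosolic aminoacyl-tRNA synthetases and their cofactors; filled points are the 8 genes in which all 4 mutant libraries lie above all 4 wild types. The 8 filled genes lie between 0.21 and 0.53, and 19 of 23 points are right of 0.

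Targets of ATF4, a list that overlaps with amino acid transport and synthesis, were higher as well, but unevenly between mutants. The level of 34 tested genes was 1.14 in M1, 0.00 in M2, 0.69 in M3 and 0.11 in M4, against -0.08 to 0.08 in wild types. Of the 34, 33 had a higher fitted value, 15 at an unadjusted p under 0.05 (against 2.22% of all genes), and in 6 the groups did not overlap (against 1.85%). The median log2 fold change was 0.47 and 0 were called. Gdf15 and Fgf21 did not pass the filter on low counts.

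Asns, which makes asparagine, stood at 139, 111, 120 and 99.1 CPM in M1 to M4 and at 84.0, 89.2, 81.6 and 75.4 CPM in W1 to W4 (0.55 ± 0.12, edgeR adjusted p 0.699). Slc7a1, a carrier of arginine and lysine, stood at 115, 87.1, 110 and 92.3 CPM against 72.7, 77.6, 79.7 and 61.9 CPM (0.51 ± 0.13). Both were above all wild types in each mutant. Trib3, a pseudokinase that is raised under stress, stood at 16.6, 2.49, 7.22 and 1.94 CPM against 1.79, 1.25, 1.58 and 1.18 CPM (2.39 ± 0.63, edgeR adjusted p 0.863), and DESeq2 called it (adjusted p 0.0353).

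Nupr1, a small chromatin protein of the stress response, stood at 14.7, 4.66, 9.26 and 5.90 CPM against 3.01 to 3.89 CPM (1.32 ± 0.37). For Trib3 and Nupr1 alike, M1 and M3 carried most of the difference. The same held for several members whose groups overlapped. Atf5 stood at 92.2, 14.7, 49.1 and 25.4 CPM against 15.1 to 25.3 CPM, Chac1 at 27.9, 7.47, 22.4 and 9.99 CPM against 6.04 to 9.19 CPM, and Ddit3 at 49.7, 21.7, 43.3 and 17.6 CPM against 16.8 to 20.9 CPM. M1 and M3, the mutants with the highest ATF4 target levels, were also the 2 with the lowest choroid plexus and brainstem levels. Over the 8 libraries the choroid plexus level ran against that of the ATF4 targets (Pearson's r -0.90, a description), with M1 at the end of both. The part of these marker levels in the ATF4 values was not tested. Without M1 the list's median was 0.13, with 22 members higher and 12 lower. With a covariate for choroid plexus content it was -0.22 (12 higher, 22 lower), and without M1 and M4, a choice made after seeing the data, it was 0.22. Since the choroid plexus level was apart between the genotypes, the fit with that covariate cannot separate content from genotype.

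The ATF4 composite motif TGATGNAA was searched on both strands in windows from 250 bases before to 50 after the start site (RefSeq, GRCm38.p6). It was found for 10 of the 30 ATF4 targets with a window (33.3%) and for 4.51% of all genes with one, tested here or not. The list was picked as ATF4 targets, so its share is not independent of that choice. For the synthetases only 16 of 23 had a window, under 80%, so the same check is void for them and gives no share. A match is a description of the letters. The stretches of 3 members with small p-values that held it before the start site show the motif in capitals, 5′ to 3′ on the strand of the gene.

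Asns (chr6:7693214-7693243, minus strand): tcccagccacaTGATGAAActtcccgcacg
Nupr1 (chr7:126625562-126625591, minus strand): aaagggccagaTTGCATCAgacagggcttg
Gars (chr6:55037941-55038000, plus strand): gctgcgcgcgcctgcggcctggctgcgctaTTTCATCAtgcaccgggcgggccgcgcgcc

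Asns held the motif in the forward sense, starting at position -23 from its start site. Nupr1 and Gars held its reverse complement, starting at -110 and -30. These 3 were chosen for their small p. Other ATF4 targets that held the motif had groups that overlapped, among them Chac1, Pck2, Pycr1, Vldlr and Jdp2, the last with an unadjusted edgeR p of 0.956.

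Targets of the tumour suppressor p53 leaned the same way. The level of 26 genes was 0.58 in M1, 0.06 in M2, 0.26 in M3 and 0.33 in M4, and -0.03 to 0.02 in wild types. Of the 26, 20 had a higher fitted value, 8 of them at an unadjusted p under 0.05 (against 2.22% of all genes), as had 1 of the 6 with a lower one (Perp, -0.53 ± 0.17, against 2.43%). In 6 genes all mutants were above all wild types (against 1.85%). The median log2 fold change was 0.33, but it was 0.15 without M1 and 0.05 with a covariate for choroid plexus content (13 higher, 13 lower), and 0 genes were called. Choroid plexus content and genotype are confounded in the fit with that covariate.

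Cdkn1a, the cell cycle inhibitor p21, stood at 175 CPM in M1, 57.7 in M2, 68.7 in M3 and 205 in M4, against 42.2 to 63.4 CPM in wild types (1.30 ± 0.42, edgeR adjusted p 0.967). M1 and M4, the libraries at opposite ends of the first component, were both high. Without these 2 the difference was 0.33 ± 0.17. Mdm2, which degrades p53, stood at 89.3, 75.5, 79.7 and 63.5 CPM against 56.3 to 61.6 CPM (0.44 ± 0.12). Ccng1, cyclin G1, stood at 95.02, 71.6, 68.2 and 128 CPM against 50.4 to 58.0 CPM (0.68 ± 0.21). Eda2r, a receptor of the tumour necrosis factor family, stood at 4.87, 1.43, 2.46 and 0.968 CPM against 0.353 to 0.716 CPM (2.27 ± 0.51), and Psrc1 at 3.39, 0.742, 1.23 and 0.792 CPM against 0.294 to 0.555 CPM (2.04 ± 0.54). The groups of these 4 genes did not overlap, with edgeR adjusted p of 0.727 to 0.967.

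**Figure D5:**
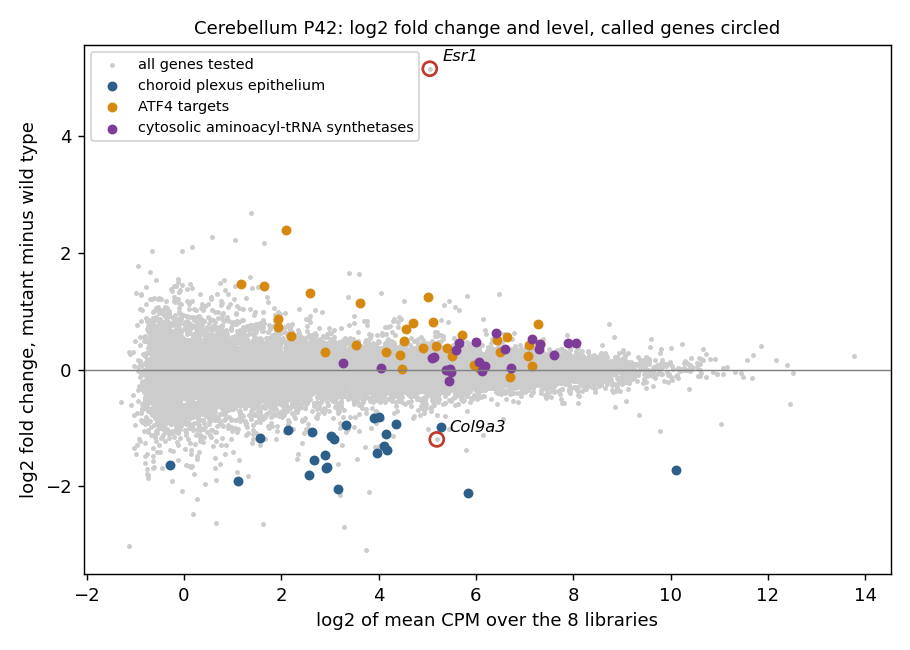
Log2 fold change (mutant minus wild type) against the log2 of the mean CPM for all 17616 tested genes in grey, with 3 lists in colour and the 2 called genes circled in red. The 24 choroid plexus genes lie between -2.12 and -0.82, all below 0, and 33 of 34 ATF4 targets and 19 of 23 synthetase genes lie above 0.

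Outside these lists, the higher genes with the smallest p and groups that did not overlap included Otoa, Trim66, Ifrd1, Rabgap1 and Cfap100, and the amino acid carrier gene Slc1a4. Otoa, which encodes otoancorin of the inner ear, stood at 6.29, 6.62, 1.66 and 3.43 CPM against 0.716, 0.486, 0.718 and 0.882 CPM (2.69 ± 0.43, edgeR adjusted p 0.699). Slc1a4 stood at 81.7, 69.6, 74.4 and 65.9 CPM against 52.1, 49.7, 54.5 and 51.6 CPM (0.50 ± 0.11). Otoa was higher in the 2 male mutants, M1 and M2, than in the 2 females, while Slc1a4 lay in a narrow range in all 4. The other 4 had log2 fold changes of 0.49 to 1.24.

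Among the lower genes were Ezr, the membrane linker ezrin, at 19.8, 21.5, 29.4 and 25.5 CPM against 31.2 to 43.3 CPM (-0.65 ± 0.11), and the heparan sulfatase gene Sulf1 at 20.8, 18.1, 23.5 and 16.9 CPM against 31.4 to 38.6 CPM (-0.79 ± 0.14). Islr, Epn3, Paqr6, Arhgap33, Pcolce and Gdf7 completed the set, with log2 fold changes of -1.79 to -0.55. None of these had an adjusted p under 0.05 with edgeR. DESeq2 called 25 genes of 33751 (0.0741%), 5 higher and 20 lower, among them Otoa, Msx1, Ezr, Sulf1, Islr and Pcolce. The authors' deposited table for this comparison held 17 genes under 0.05 of 16967 with an adjusted p (0.1%), 8 higher and 9 lower, and 8 of the 17 were called by DESeq2 here.

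Among genes with an approved symbol, the first in the authors' deposited table were Esr1 (log2 fold change 5.14), Otoa (2.68), Sulf1 (-0.76), Nars (0.47) and Col9a3 (-1.05), Esr1 with an adjusted p of 2.09e-93 and Nars and Col9a3 with 0.00312 each. It also held Slc1a4, Ifrd1, Arhgap33, Csmd2, Ldoc1, Pou3f1, Capn11 and Hif3a. From the counts, Csmd2, Ldoc1 and Pou3f1 had groups that did not overlap (log2 fold changes -0.51, -0.72 and -1.01). Capn11 and Hif3a overlapped. The Capn11 value rests on wild types of 10.3, 1.11, 3.30 and 6.35 CPM against 0.528 to 1.34 CPM in mutants.

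Genes that respond to glucocorticoids were higher in 3 of the mutants. The level of 15 was 0.78 in M1, 0.40 in M2, -0.09 in M3 and 1.11 in M4, and -0.09 to 0.09 in wild types. Of the 15, 14 had a higher fitted value (median log2 fold change 0.51), 4 at an unadjusted p under 0.05 (2.22% of all genes), and in 0 were the groups apart (1.85% of all genes). Without M1 and M4, a choice made after seeing the data, the median was 0.26, with 11 higher and 4 lower. Hif3a, a hypoxia-inducible factor subunit, stood at 60.8, 57.4, 29.5 and 69.5 CPM against 28.5, 26.1, 30.4 and 21.7 CPM (1.11 ± 0.24, edgeR adjusted p 0.699). Fkbp5, the co-chaperone of the receptor, stood at 68.2, 48.2, 28.5 and 126 CPM against 28.5, 24.5, 51.7 and 25.98 CPM, so that W3 was above M2 and M3.

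Blood transcripts were lower in mutants, and in 1 wild type. The level of 6 tested genes was -2.65, -2.29, -1.61 and -0.99 in M1 to M4, and 0.22, 0.62, -1.84 and 0.998 in W1 to W4. All 6 were lower at an unadjusted p under 0.05 (2.43% of all genes; median log2 fold change -2.56), and in 0 were the groups apart (1.58% of all genes). Hbb-bs, a beta globin gene, stood at 0.706, 1.91, 5.56 and 9.77 CPM against 17.8, 27.8, 3.37 and 40.6 CPM (-3.10 ± 0.65, edgeR adjusted p 0.699), and Hba-a1 of the alpha globins at 0.706, 2.76, 2.84 and 6.60 CPM against 14.7, 20.6, 4.52 and 25.3 CPM (-2.70 ± 0.56). The globin genes have near-identical copies, between which reads may be split.

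Of 42 tested collagen genes, 33 had a lower fitted value, 11 at an unadjusted p under 0.05 (2.43% of all genes) and 1 called (0.0114% of all genes), against 9 with a higher one, 1 of them at an unadjusted p under 0.05. The median was -0.33, and the level was -0.77 in M1, -0.33 in M2 and M3 and 0.06 in M4, against -0.13 to 0.24 in wild types. Col8a2 of the basement membranes stood at 1.34, 5.46, 5.99 and 6.82 CPM against 9.45 to 17.5 CPM (-1.62 ± 0.37). The fibril genes Col1a1 and Col1a2 had log2 fold changes of -0.84 ± 0.19 and -0.50 ± 0.10, and Col27a1 one of -0.74 ± 0.14, all 3 with groups that overlapped. Meningeal and fibroblast genes (17, of which the list shares Col1a1, Col1a2 and Col3a1 with the collagens) had a median of -0.22 and a level of 0.32 in M4, above the wild types. Cd74, the invariant chain of MHC class II, stood at 1.77, 3.02, 4.07 and 2.73 CPM against 3.73 to 7.82 CPM (-1.07 ± 0.27).

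No gene of RNA polymerase III passed the test. Its 18 subunit genes had log2 fold changes of -0.31 to 0.24 (median -0.02), with 8 higher and 10 lower and 0 at an unadjusted p under 0.05. The 19 genes of its factors had a median of 0.03 and also 0. Of 12 RNAs that it transcribes, 1 (Rn7sk) passed the filter on low counts. Its level was 0.13 in M1, -1.51 in M2, -1.41 in M3 and -2.62 in M4, and -0.74 to 1.03 in wild types. The log2 fold change was -1.02, with an unadjusted edgeR p above 0.05. With 1 library left out it ran from -1.65 (without M1) to -0.74 (without W3), and that p was under 0.05 without M1 and without W1. The libraries select polyadenylated RNA, so this value does not measure the polymerase's output. The tested synapse genes (21) had a median of -0.03, the cytosolic ribosomal proteins (83) of -0.02 and the nuclear genes of oxidative phosphorylation (77) of -0.06. Mitochondrially encoded subunits (12) stood at -0.19, 0.66, -0.28 and 0.54 in M1 to M4 and -0.31 to 0.21 in wild types, high in the same 2 mutants in which granule and Purkinje genes were low.

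The fit was repeated with the level of the brainstem list as a covariate, a choice made after seeing the data. That fit called 469 genes (2.66%), 133 higher (0.755%) and 336 lower (1.91%), with 4 residual degrees of freedom. Esr1 and Col9a3 were among them, as were 16 of the 17 genes of the authors' deposited table. All 469 had the same sign as without the covariate, although 124 had an unadjusted p under 0.05 there. In 73 of the 469 the groups did not overlap (3.43% of all tested genes). The covariate and the authors' table come from the same libraries, so shared calls and signs are no independent support. It called 12 of 24 choroid plexus genes lower, 10 of 42 collagens lower, 4 of 12 mitochondrially encoded subunits higher and 2 of 23 synthetase genes higher, which were Nars and Gars. It called 2 of 17 mitochondrial synthetases, 3 of 21 synapse genes and 3 of 20 immediate early genes lower. Of the ATF4 targets it called 1, Asns, and of the p53 targets 0, and the medians of both lists were 0.20. Of granule and Purkinje genes it called 4 of 14 each, all lower, with medians of -0.60 and -0.59. These 2 lists ran against the covariate itself, and M1 lies far from the other libraries on it. With choroid plexus content as the covariate instead, which was itself apart between the genotypes, edgeR called 1 gene, Esr1.

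To see whether the genotype difference in cerebellum was other than in cerebrum at the same age, a genotype by tissue term was fitted over 16 P42 libraries. No gene of 19614 was called by edgeR, 1213 had an unadjusted p under 0.05 (6.18%), and DESeq2 called 19. The smallest p belonged to Synpo2, an actin-binding protein, at 8.93 to 11.6 CPM in cerebellum mutants and 8.83 to 9.88 CPM in wild types: its log2 fold change was 0.15 ± 0.15 in cerebellum and 2.12 ± 0.24 in cerebrum (interaction -1.93 ± 0.29, edgeR adjusted p 0.13). For Col9a3 the log2 fold change was 0.42 ± 0.43 in cerebrum, and the difference between tissues was -1.34 ± 0.53 (edgeR adjusted p 0.732). Esr1 was higher in both, by 3.56 ± 0.44 in cerebrum, a difference of 1.58 ± 0.54 (edgeR adjusted p 0.732).

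The lists stood side by side as follows. The median log2 fold change of choroid plexus genes was -1.34 in cerebellum and -0.83 in cerebrum, that of ATF4 targets 0.47 and 0.44, of synthetases 0.21 and 0.13, of p53 targets 0.33 and 0.16, and of glucocorticoid-responsive genes 0.51 and 0.48. With edgeR no gene of any list was called for a difference between tissues, so the test does not set these lists apart from others. Other lists had medians of opposite sign, which is a description only. Collagens were at -0.33 in cerebellum and 0.07 in cerebrum, myelin genes at -0.14 and 0.55, ependymal genes at -0.62 and 0.85, mitochondrially encoded subunits at 0.32 and -0.28, and brainstem genes at -0.10 and 1.06.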

How the data were processed

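RNA was extracted with Trizol and sequenced as polyA-selected libraries, per the labels' protocols. The authors deposited a table of whole-number counts per gene; the submitters' processing notes name HISAT2, DESeq2 and mm10, and no source used here gives the read counter or the versions. Their deposited table for this comparison gives, per the file headers, the log2 fold change with its SE, a Wald score and a p-value with its adjusted value; its design is not stated, and it was used for comparison only. From the counts, R 4.3.3 and edgeR 4.0.16 were used: filterByExpr by genotype, TMM, the quasi-likelihood F test with sex and genotype, two-sided, and Benjamini-Hochberg over all tested genes. The SE is the log2 fold change over the square root of F. Log2 CPM used a prior count of 0.5. DESeq2 1.42.0, other scalings, filters and covariates, and leaving out libraries were alternatives. The test was run on simulated data with large changes and the same dispersion for every gene. That setting lacks the uneven spread of these libraries, so it does not show how the test performs on them.

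The comparison and all 45 gene lists were chosen with earlier results of these data known. Genes are named where they were called, where they had the 10 smallest p each way with groups apart and a mean of at least 1 CPM, where the authors' deposited table had them, or as up to 4 members of a list with the smallest p and its first member, or, for the interaction, among the 5 smallest p each way. Kl, Folr1, Aqp1, Cldn2, Chac1, Atf5, Ddit3, Pck2, Pycr1, Vldlr, Jdp2, Ccng1, Perp, Col8a2, the synthetases given only by name or range, and the marker genes given by level alone were named after their values were seen.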

Additional observations from a re-analysis of the deposited data

Results flagged for a closer look

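Within each group of 4 libraries, 1 library was far from the other 3, by the gap to its nearest neighbour over the range (above Dixon's 95% critical value), in 14 of 250 groups examined; chance flags about 1 in 20. Among mutants, M1 stood apart in the level of the choroid plexus list (-3.78, the others -1.14 to -0.81) and in Kl (1.41 CPM, the others 28.6 to 32.6). M4 stood apart in the level of the cytosolic ribosomal proteins (0.36, the others -0.12 to -0.05), and M2 in Arhgap33 (24.3 CPM, the others 29.5 to 30.3).

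The other 10 were wild types. W4 was high in the MHC class II list (0.49, the others -0.21 to -0.13), in Sulf1 (38.6 CPM, the others 31.4 to 32.2) and in Islr (18.0 CPM, the others 11.2 to 11.9), and low in Ccng1 (50.4 CPM, the others 57.6 to 58.0) and mt-Co1 (10775 CPM, the others 13694 to 14249); it was the only female wild type. W2 was low in the myelin list (-0.35, the others 0.07 to 0.15) and in Cfap100 (4.16 CPM, the others 6.70 to 7.18), and high in Mdm2 (61.6 CPM, the others 56.3 to 57.0). W3 was high in Fkbp5 (51.7 CPM, the others 24.5 to 28.5) and Plin4 (75.7 CPM, the others 14.3 to 24.6), a lipid droplet gene of the glucocorticoid list.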

How the results depend on the processing

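The count of 2 called genes, Esr1 and Col9a3, was the same with RLE scaling, library size alone and a stricter filter. It was also 2 without M1, and without M1 and M4 (added after seeing the data), but then without Col9a3. It was 1 (Esr1) without the sex term, with the replicate block, with the choroid plexus covariate, in males only and at an adjusted p under 0.01, 1 to 2 with each library left out, 25 with DESeq2, 153 (57 higher) without the filter and 469 with the brainstem covariate (added after seeing the data). Without the filter the fit assumed no spread in dispersion between genes of the same mean level. Groups did not overlap in 604 genes, in 848 to 1338 with 1 library left out and in 2975 in males only; fewer libraries overlap less often by construction. The interaction was called for 0 genes in all edgeR settings and for 19 with DESeq2.

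The choroid plexus covariate moved the medians of Purkinje (-1.04), granule (-0.95), brainstem (2.23), synthetase (0.10), ATF4 (-0.22) and p53 genes (0.051), and turned Ttr (0.74), Folr1 (0.31), Chac1 (-0.19), Atf5 (-0.72) and Ddit3 (-0.066). This covariate was lower in every mutant than in every wild type, so these values cannot be split between content and genotype. The cause was not tested. The p53 median was 0.10 with mutant replicates 1 and 4 left out, and 0.15 to 0.329 with 1 library left out. Of 61 genes given with a fold change, the brainstem covariate brought 34 and no filter 38 past the threshold. No other sign among these genes changed.

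The labels do not say whether replicate numbers pair the libraries. Sexes differ within number 3, and deviations of same-numbered libraries from their group means correlated at 0.14, -0.06, -0.57 and 0.14. These values cannot exclude that same-numbered libraries shared a batch. The block left 1 call. With library size alone, the CPM of each library moved by its TMM factor. The shift under RLE scaling is not given here.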
